A study of Drosophila melanogaster with 6 samples.

Results

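Replication-dependent histone genes encode the histones that package newly replicated DNA. Among the probes of an Agilent 2-color array of the Drosophila melanogaster genome, the members were all those annotated with 1 of 4 RefSeq transcripts, NM_001032164 of His2B:CG33888, NM_001032194 of His2B:CG33876, NM_001032136 of His4:CG33899 and NM_001032117 of His4:CG33907. They amounted to 4 of the 25857 gene and transcript identifiers on the array, or 4 of 32162 probes after the removal of controls, with no filter on dim signals. They took 5 of 43602 spots, since the probe for His4:CG33899 was spotted in 2 places. The genes were chosen by name and not by their values, though with earlier results of these data known.

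Histones H2B and H4 are core proteins of the nucleosome, the unit around which DNA is wrapped. Their genes lie in a tandemly repeated cluster, in which each repeat holds a copy of His1, His2A, His2B, His3 and His4. They are transcribed mainly in S phase, and their mRNAs end in a stem-loop bound by the protein SLBP rather than in a poly(A) tail. In the ovary, follicle cells divide mitotically before they turn to endocycles and to amplification of the chorion genes, while the polyploid nurse cells of the germline supply the egg with histone mRNA. Labeling kits of the type used here usually prime from poly(A) tails.

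Whole ovaries of 2 genotypes were compared, with 3 arrays for each. Control ovaries carried GAL80TS/+ ; GR1-GAL4/TM6B and no UAS transgene. Ectopic expression ovaries carried the same GAL80TS and driver together with UAS-Unpaired, which encodes the ligand of the JAK/STAT pathway, and UAS-lambdatorpedo, which encodes a constitutively active EGF receptor. GR1-GAL4 drives expression in follicle cells, so the transgenes were directed to 1 cell type of a tissue that was measured whole. Females were 5 to 8 days old, and the ovaries of several were pooled for each preparation. GAL80TS, a temperature-sensitive inhibitor of GAL4, was present in both groups, and both were crossed at 18°, fed yeast for 2 days and moved to 29° for 16 hours before dissection. The sample RNA was labeled with Cy5. On every array it was set against a Cy3-labeled pool of RNA from wild-type OreR ovaries of females kept at 25°, and the dyes were not swapped. The replicates are labeled as biological replicates, and each of 3 slides held 1 array of each group. In whole ovaries, fewer cells of a type and less RNA per cell cannot be told apart.

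The gene table used for naming holds 111 replication-dependent histone genes on chromosome arm 2L, of which 23 are copies of His2B and 22 are copies of His4. His2B:CG33888 lies between His1:CG33834 and His2A:CG33835, and His2B:CG33876 lies between His1:CG33852 and His2A:CG33853. His4:CG33899 lies next to His3:CG33818, and His4:CG33907 lies between the pseudogene His-Psi:CR33805 and His3:CG33806. Because the copies of a family are nearly identical, a probe may hybridize to transcripts of many repeats. Its signal may then be that of the family rather than of the copy for which it is named. Probe sequences were not available, so this was not checked.

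The histone probes were dim. Net intensities, the median of a spot minus its local background, lay between 11 and 209.5 scanner units in Cy5, with a median of 40.25 over 5 spots on 6 arrays. In the Cy3 channel they lay between 10.5 and 41, with a median of 23.75. By the scanner's own criterion, 53.3% of the 30 measurements were well above background in Cy5 and 50% in Cy3, and 0 were saturated or marked as outliers. None of the 4 probes was well above background in Cy5 on all 6 arrays at every spot.

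Among the arrays themselves, control 3 stood apart, with 77.8% of all spots well above background in Cy5 against 54.1% to 57.8% on the other 5 arrays. In Cy3 its share was 58.5%, and the range over the 6 arrays was 53.6% to 58.5%. The marker lists for the tissue could hardly be checked, because only 494 probes could be paired with exactly 1 gene, while 21630 carry transcript identifiers that the gene table does not pair. A probe could be named for 1 of 11 germline genes and for 0 of 15 follicle cell genes, 6 muscle, 5 hemocyte and 4 fat body genes. Probes for the 2 genes expressed from the transgenes could not be named either, so the labels were not checked against them here. The germline gene was exu, which encodes an RNA-binding protein that acts in bicoid mRNA localization. It was above background on all 6 arrays.

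Of the 4 histone probes, 0 passed the test for a difference between ectopic expression and control ovaries (limma, Benjamini-Hochberg adjusted p of 0.05 and a change of 2-fold), against 2.11% of all probes (1.29% higher and 0.824% lower in ectopic expression ovaries). At an unadjusted p of 0.05, 1 of the 4 passed, against 23.1% of all probes. The 2 groups did not overlap for 2 of the 4, against 27.6%, and these 2 went in opposite directions. His2B:CG33888 lay higher in ectopic expression ovaries, as did 14% of all probes without overlap, and His4:CG33907 lay lower, as did 13.6%. In the Cy5 channel alone 0 of 4 passed the test, against 2.22% of all probes, and 2 passed an unadjusted p of 0.05, against 20.2%. In the Cy3 channel of the reference 0 of 4 passed either, against 0.00311% and 1.78%. The groups did not overlap in Cy5 for 3 of 4, against 24.5% of all probes, with both His2B probes higher and His4:CG33907 lower. In Cy3 they did not overlap for 1 of 4, against 6.46%. With the log2 ratios that the authors deposited, 0 of 4 passed, against 2.14%. The median difference over the 4 probes was 0.03 on the log2 scale, beside -0.0032 over all probes. This median and the counts above include His2B:CG33876, which was not well above background on any array. For the other histone probes the differences were 0.26, -0.10 and -0.16.

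**Figure D1:**
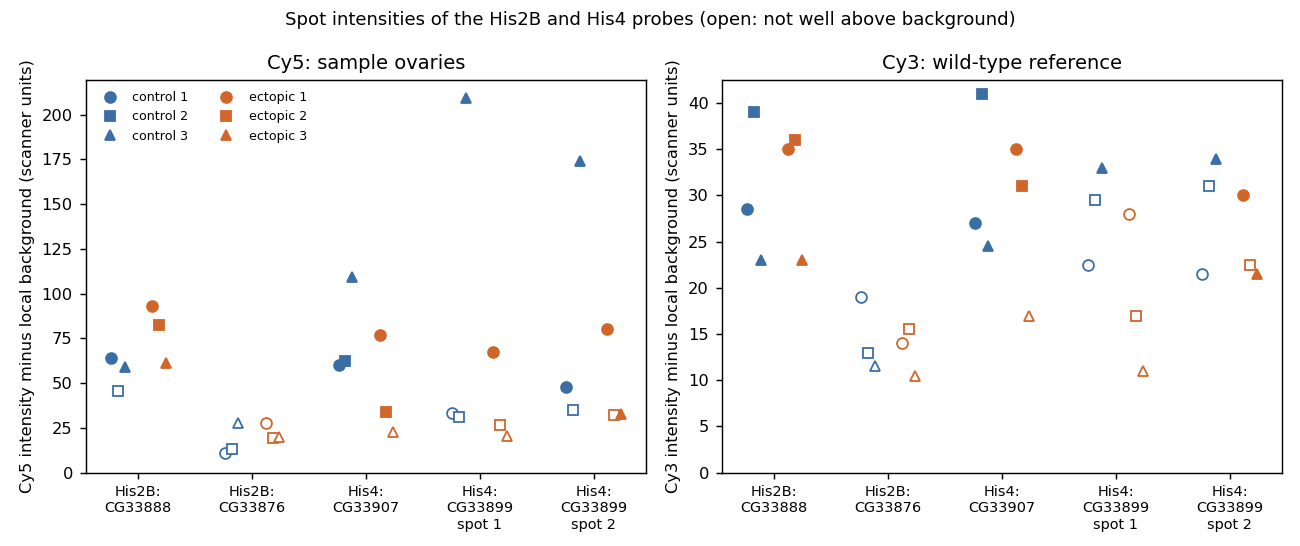
Net spot intensity in scanner units (vertical axes, linear) of each histone spot in Cy5 (left, sample ovaries) and Cy3 (right, wild-type reference), with 1 point for each of the 6 arrays and open points for spots not well above background. The 2 spots of His4:CG33899 read 209.5 and 174 in Cy5 on control 3, and all other Cy5 points lie between 11 and 109.

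His2B:CG33888 had net Cy5 intensities of 64, 45.5 and 59 in control 1 to 3. In ectopic expression 1 to 3 they were 93, 82.5 and 61. It was the member most often detected, being well above background in Cy5 on 2 of 3 control arrays and on 3 of 3 ectopic expression arrays, and in Cy3 on all 6. After background correction and normalization, its log2 ratio of Cy5 over Cy3 was 0.07, -0.12 and -0.18 in control and 0.11, 0.33 and 0.11 in ectopic expression ovaries. Every ectopic expression array thus lay above every control array. The group means were -0.07 ± 0.13 (SD, n = 3) and 0.19 ± 0.12 (SD, n = 3), a difference of 0.26 (SE 0.10, 95% interval 0.04 to 0.48), or 1.20-fold (interval 1.03 to 1.40). It did not pass the threshold over all probes (limma adjusted p = 0.144).

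The difference for His2B:CG33888 was larger in the sample channel than in the reference. Its log2 Cy5 intensity was 6.48 ± 0.16 in control and 6.84 ± 0.12 in ectopic expression ovaries (SD, n = 3 each), a difference of 0.36 (SE 0.11, limma adjusted p = 0.0894). The reference channel held RNA of the wild-type pool on every array. After normalization, which uses both channels, it was also without overlap. It was 6.56 ± 0.04 beside control and 6.65 ± 0.03 beside ectopic expression ovaries (SD, n = 3 each). Before normalization its net Cy3 intensities overlapped, at 28.5, 39 and 23 beside control and 35, 36 and 23 beside ectopic expression ovaries. The normalized reference difference was 0.08 (SE 0.06) and did not pass the test. Groups that did not overlap in the reference made up 6.46% of all probes. Within slides 1, 2 and 3, ectopic expression exceeded control by 0.04, 0.45 and 0.29 on the log2 ratio.

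His2B:CG33876, the other His2B probe, was not well above background on any array in either channel. Its net Cy5 intensities were 11, 13 and 27.5 in control and 28, 19.5 and 20 in ectopic expression ovaries. Its log2 ratios were -0.23, 0.08 and -0.08 in control and 0.12, 0.11 and 0.03 in ectopic expression ovaries, so the groups overlapped. The probe did not pass the test (limma adjusted p = 0.354). In log2 Cy5 alone every ectopic expression array lay above every control array, in signals not well above background. Since neither group was well above background in either channel, no difference or fold change of its ratio is given here.

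His4:CG33907 had net Cy5 intensities of 60, 62.5 and 109 in control and 77, 34 and 22.5 in ectopic expression ovaries. It was well above background in Cy5 on 3 of 3 control arrays and on 2 of 3 ectopic expression arrays. Its log2 ratios were 0.08, 0.02 and 0.19 in control and 0.0038, -0.07 and -0.14 in ectopic expression ovaries. All ectopic expression arrays lay below all control arrays, but by little, with the closest pair being control 2 and ectopic expression 1. The means were 0.09 ± 0.09 and -0.07 ± 0.07 (SD, n = 3 each), a difference of -0.16 (SE 0.08, 95% interval -0.35 to 0.02). This is 0.893 times the control level (interval 0.787 to 1.01, limma adjusted p = 0.283). The log2 Cy5 intensity differed by -0.22 (SE 0.10, limma adjusted p = 0.265) and the log2 Cy3 intensity by -0.07 (SE 0.07). Within slides 1, 2 and 3 the log2 ratio differed by -0.07, -0.08 and -0.33.

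His4:CG33899 was the member that varied most within groups, and 1 array set its control mean. Its first spot had net Cy5 intensities of 33.5, 31 and 209.5 in control and 67.5, 26.5 and 20.5 in ectopic expression ovaries. At the second spot they were 48, 35 and 174 in control and 80, 32 and 32.5 in ectopic expression ovaries. Control 3 was thus far above the other arrays at both spots. The first spot was well above background in Cy5 on 1 control and 1 ectopic expression array, and the second on 2 of each. The log2 ratio, averaged over the 2 spots, was 0.03, -0.09 and 0.58 in control and 0.12, 0.13 and -0.05 in ectopic expression ovaries.

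The groups overlapped for His4:CG33899, with means of 0.17 ± 0.36 in control and 0.07 ± 0.10 in ectopic expression ovaries (SD, n = 3 each). The difference was -0.10 (SE 0.16, 95% interval -0.48 to 0.27, limma adjusted p = 0.808), or 0.930 times the control level (interval 0.719 to 1.20). Without control 3 the difference was 0.10, in the opposite direction. Within slides 1, 2 and 3 it was 0.09, 0.23 and -0.63, the last being the slide of control 3. The normalized reference channel of this probe was also highest on control 3. Its log2 intensity was 6.90 there, against 6.28 to 6.49 on the other arrays. Normalized channel values were computed from the ratio and mean of both channels. Before normalization, net Cy3 intensities at the 2 spots were 33 and 34 on control 3, and 29.5 and 31 on control 2. The normalized log2 Cy5 intensity on control 3 was 7.45 against 6.32 to 6.61. The part of the higher share of detected spots on control 3 in this value was not tested.

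The 2 spots of His4:CG33899 gave similar ratios on each array. They differed by 0.02 to 0.22, with a median of 0.11, beside a median of 0.07 for all probes spotted more than once. On control 3 the spots read 0.69 and 0.47. The pooled SD within groups was 0.265 for this probe, larger than for 94.7% of all probes. For His4:CG33907, His2B:CG33876 and His2B:CG33888 it was 0.0807, 0.115 and 0.127, beside a median of 0.110 over all probes.

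**Figure D2:**
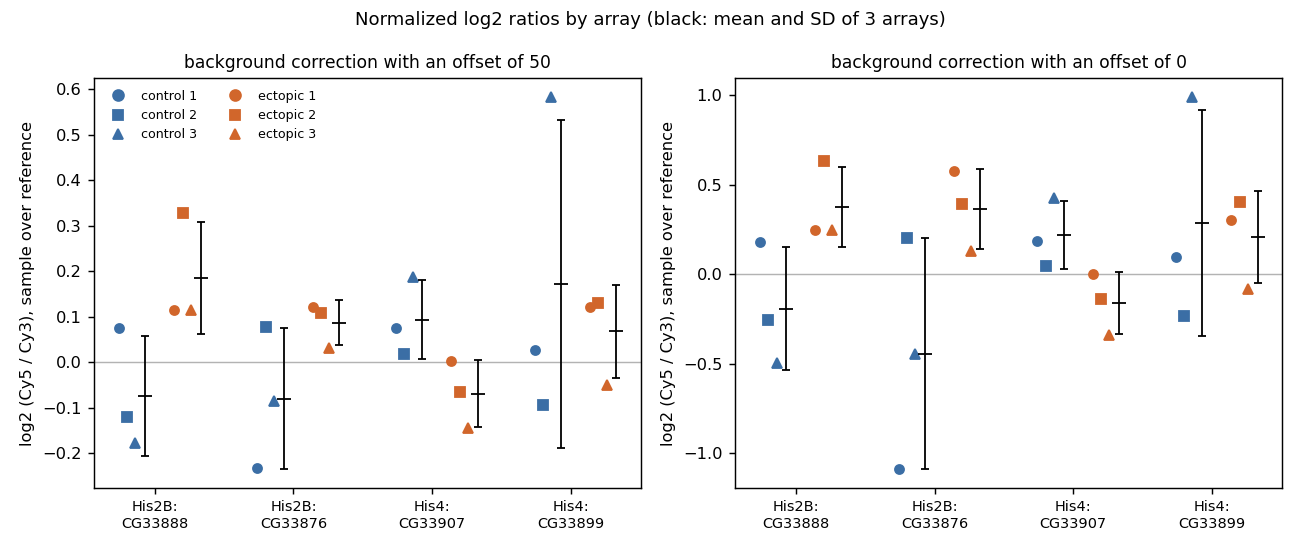
Normalized log2 ratio of sample over reference (vertical axes) for each histone probe on each array, with black marks for the mean and SD of 3 arrays, after background correction with an offset of 50 (left) and of 0 (right). With the offset of 50 the 24 values span -0.23 to 0.58, and with an offset of 0 they span -1.09 to 0.99.

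Relative to wild-type ovaries, the 24 log2 ratios lay between -0.23 and 0.58 with an offset of 50, between -1.09 and 0.99 with an offset of 0, and between -0.73 and 1.23 by the scanner's own ratio. His4:CG33899 in ectopic expression ovaries, for example, averaged 0.07 with an offset of 50 and 0.80 by the scanner's ratio, so the levels relative to wild type depended on the correction. Genotype, strain, temperature and dye all differed between sample and reference and cannot be told apart, so these levels were not tested. The probes of a family were also compared across arrays, though His2B:CG33876 was not well above background on any of them. Over the 6 arrays, Pearson's r of the log2 ratios was 0.321 between the 2 His2B probes and 0.716 between the 2 His4 probes, the latter including control 3. Between His2B:CG33888 and His4:CG33907, r was -0.685. These correlations are across arrays that share the reference and, in pairs, a slide, and are given as a description. The probes whose ratios followed the mean of the 4 most closely, among 15222 candidates, were FBtr0081815 and FBtr0078509 (both r = 0.987 over 6 arrays). The gene table does not pair them with a name. These r were the highest of many over few arrays and were not tested against chance. The mean combined probes that went in opposite directions, and on control 3 it was 0.13, where His4:CG33899 read 0.58. It is thus not the pattern of any 1 histone probe.

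The size of change that these probes could show depended on the background correction. An offset of 50, added to each channel before the ratio is taken, is as large as the net signals of most histone spots and pulls their ratios toward 0. With it, the 95% interval of His2B:CG33888 and of both His4 probes lay within 2-fold in either direction. With an offset of 0, the difference of His2B:CG33888 was 0.57 (SE 0.22, 95% interval 0.05 to 1.09), or 1.48-fold (interval 1.03 to 2.12, limma adjusted p = 0.217). That interval reached past 2-fold. The difference of His4:CG33907 became -0.38 (SE 0.16, 95% interval -0.77 to 0.01), or 0.769 times the control level (limma adjusted p = 0.264). That of His4:CG33899 was -0.08 (95% interval -0.86 to 0.71, limma adjusted p = 0.932). Of the 4 histone probes, 0 passed the test with an offset of 0, against 3.01% of all probes, and 2 passed an unadjusted p of 0.05, against 19.6% of all probes. By the scanner's own log ratio the interval of His2B:CG33888 was wider still, at 0.97 (95% interval -0.00 to 1.95, limma adjusted p = 0.223), again with 0 of 4 probes passing, against 3.46% of all probes.

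**Figure D3:**
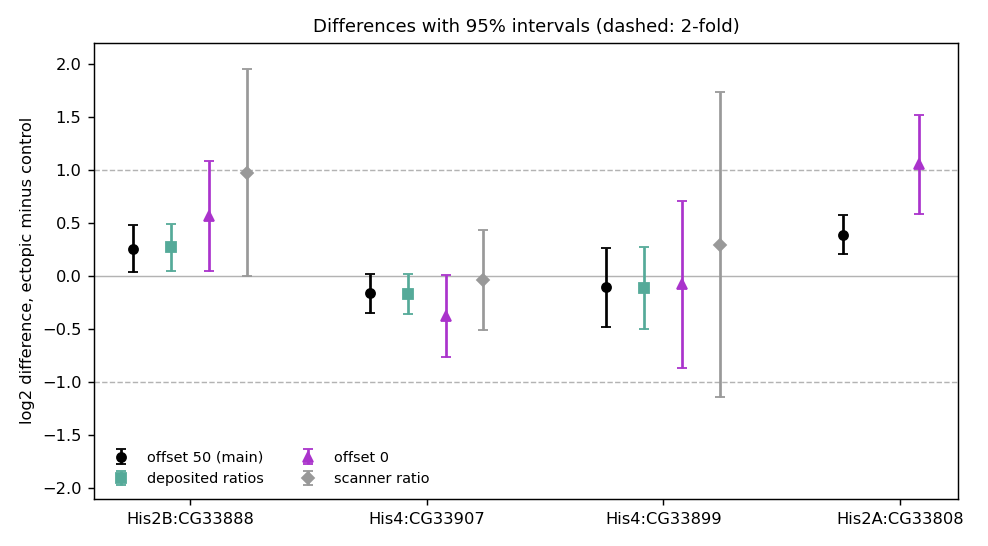
Difference in log2 ratio, ectopic expression minus control, with 95% intervals (vertical axis, n = 3 arrays per group) and dashed lines at 2-fold. The 3 histone probes well above background on some arrays are shown under 4 forms of the data, and His2A:CG33808 under offsets of 50 and 0. The estimate for His2B:CG33888 is 0.26 with an offset of 50 and 0.57 with an offset of 0, and both His4 probes have intervals that include 0 under every form shown.

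Few probes for other histone genes could be named. Of the 111 replication-dependent histone genes, 5 had a named probe, and the fifth was His2A:CG33808, which encodes histone H2A, the partner of H2B in the nucleosome. Its net Cy5 intensities were 38, 40 and 25 in control and 83, 74.5 and 46.5 in ectopic expression ovaries. The log2 ratios were 0.03, 0.06 and -0.08 in control and 0.37, 0.49 and 0.33 in ectopic expression ovaries, with no overlap. Its mean ratio was 0.39 higher in ectopic expression ovaries (SE 0.08, 95% interval 0.21 to 0.57, limma adjusted p = 0.0143). It thus passed the adjusted p, as 12% of all probes did, but not the 2-fold threshold. The adjusted p was 0.0590 without ectopic expression 1 and 0.0536 without ectopic expression 2, 0.110 with median centring and 0.101 by the scanner's log ratio, where the difference was 2.89.

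The control level of His2A:CG33808 is uncertain, since the probe was well above background on 0 of 3 control arrays and on 3 of 3 ectopic expression arrays. On the control arrays the dimmest detected signal (mean log2 Cy5 5.84) lay below the probe's own signal (mean 6.28). It therefore gave no lower bound on the change. The normalized Cy5 intensity of the probe was 1.40-fold higher in the ectopic group (95% interval 1.15 to 1.71, limma adjusted p = 0.0490). That fold is an estimate and not a minimum. In the reference channel the probe was well above background on 0 of 6 arrays. With an offset of 0 the probe passed both thresholds (limma adjusted p = 0.0354), as 1.86% of all probes did in the same direction. Since neither the reference nor the control level was well above background, the size of that ratio is not measured. Whether His2A:CG33808 differed from the His2B and His4 probes in its response was not tested.

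Among 6 genes for histone variants, which are made outside S phase as well, 1 had a named probe. His3.3B, which encodes the replacement histone H3.3, had log2 ratios of -0.16, -0.13 and -0.03 in control and 0.18, 0.03 and 0.23 in ectopic expression ovaries. It did not overlap between groups, as did 14% of all probes in that direction, and it was well above background on all 6 arrays. The difference was 0.25 (SE 0.08), or 1.19-fold, and did not pass the test (limma adjusted p = 0.0903). Of 12 genes for the synthesis and processing of histone mRNA, 39 genes of S phase and 17 genes of mitosis, 0 had a named probe.

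For the germline gene exu the sign of the difference was that of both His4 probes and opposite to that of the His2B:CG33888 and His2A:CG33808 probes, though that of His4:CG33899 turned by the scanner's log ratio and without control 3. Its log2 ratios were 0.09, -0.10 and 0.09 in control and -0.80, -0.57 and -0.39 in ectopic expression ovaries, with no overlap. The difference was -0.62 (SE 0.11), or 0.652 times the control level, which passed the adjusted p (limma adjusted p = 0.00939) but not the 2-fold threshold. The adjusted p was 0.0658 with an offset of 0, 0.113 with median centring and 0.104 in the Cy5 channel alone, where the groups overlapped. This is 1 of the 11 germline genes, and its part in the histone values was not tested.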

How the data were processed

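For each array the authors deposited the output of the scanner software (Feature Extraction 11.0.1.1), which holds the uncorrected median intensity of spot and local background in both channels and a log10 ratio of Cy5 over Cy3 computed by that software. They also deposited a table of log2 ratios, described in the methods as corrected by normexp and normalized by loess and quantiles, whose rows follow the scanner files' spot order. Labeling used 322 ng of RNA.

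In R 4.3.3 with limma 3.58.1, median intensities were corrected by normexp (offset 50), control spots were removed, and 106 to 123 outlier spots per array were set missing. Arrays were normalized by loess and quantiles, and spots were averaged by probe. The groups were compared with limma's linear model and moderated test (lmFit and eBayes), with Benjamini-Hochberg adjustment over 32162 probes and a threshold of 0.05 and 2-fold. Channel intensities came from loess and Aquantile normalization, each computed from the normalized ratio and mean of both channels. The model fit was tested on simulated log ratios with planted changes of 2 on the log2 scale. Those were larger than the differences of the His2B and His4 probes. The simulation therefore did not show whether changes of their size could be detected.

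Probes were matched by accession to the RefSeq table of Release 6, which paired 494 probes with exactly 1 gene. Its coordinates were not used, since the array follows an earlier genome build. The rule for named genes was the 4 histone transcripts and every probe paired with 1 gene of the histone, replication, mitosis and cell type lists. Members and lists were chosen with earlier results of these data known. Own ratios and deposited ratios correlated at r of 0.99971 to 0.99989, in the same direction. Precision is limited by the number of arrays.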

Additional observations from a re-analysis of the deposited data

Results flagged for a closer look

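The log2 Cy3 intensity of His4:CG33899 on control 3 was 6.90, against 6.28 to 6.49 on the other 5 arrays. Over the 6 arrays, which all carried RNA of the wild-type reference pool in this channel, this value lay farther from its neighbor than Dixon's test allows at the 95% level, which chance exceeds in about 1 in 20 such groups. It was the only array value of the histone probes so marked in the groups of 6 reference values. Groups of 3 were not tested. The flagged value was computed after normalization from the ratio and mean of both channels, so it is not a reading of the reference alone. Before normalization, net Cy3 intensities at the spots of this probe were 33 and 34 on control 3, and 29.5 and 31 on control 2.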

How the results depend on the processing

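Over 74 alternatives for the 4 histone probes, 72 kept direction and stayed on the same side of the threshold, and 0 passed it. They were fits of the ratio, except for the Cy5 channel alone. Many of them could not change the difference. Other moderation, a block for replicate number, unaveraged spots and leaving out dim probes repeated the main difference, and loess with Aquantile repeated loess alone. The count of 72 is therefore not one of separate checks. The 2 that changed direction were both of His4:CG33899, which was 0.29 with the scanner's log ratio and 0.10 without control 3. Leaving out 1 array at a time, its difference ranged from -0.24 to 0.10, and in Cy5 and Cy3 alone from -0.46 to 0.11 and from -0.26 to 0.0050, each upper value without control 3. His2B:CG33876 was not well above background on any array. Its Cy3 difference was 0.04 and became -0.082 with an offset of 0 and -0.0094 with no background correction. With 1 array left out that difference ranged from -0.030 to 0.11. His2B:CG33888 ranged from 0.19 to 0.33 and His4:CG33907 from -0.20 to -0.12 with 1 array left out. These fits used values normalized with all 6 arrays. Over all probes, 718 were called higher with the scanner's log ratio against 415. With each of 43602 spots tested on its own, 601 spots were called higher and 401 lower, against 415 and 265 of 32162 probes, counts of unlike units. A block for the replicate number, which was also the slide, changed no call of a histone probe. With it the differences were 0.26 for His2B:CG33888 (limma adjusted p = 0.168), -0.10 for His4:CG33899 (0.806) and -0.16 for His4:CG33907 (0.340). Of all probes, 417 and 266 were called higher and lower. Deviations of arrays on the same slide correlated at 0.250, 0.0017 and 0.101. The main fit used no block, so the pairing by slide entered only this alternative and the values within slides. Leaving out dim probes removed His2B:CG33876 and His4:CG33899. The intensities near background limit what these probes can show.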
